A study of Mus musculus with 4 samples.

Results

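The transcripts of 9 genes for linker histones and replacement histone variants were measured in mouse oocytes at the germinal vesicle stage, at which the nucleus is still intact. The genes were chosen by symbol from a table of 17945 genes: H1f8, H1f0 and H1f10 for the linker histone H1, H3f3a and H3f3b for the variant H3.3, H2az1 and H2az2 for H2A.Z, Macroh2a1 for macroH2A1, and H2ax for H2A.X. All were taken from females on postnatal day 20 without hormone priming and kept in prophase with milrinone, an inhibitor of the phosphodiesterase that breaks down cyclic AMP. From bright-field images of the live cells, a deep learning pipeline assigned each oocyte to the non-surrounded nucleolus (NSN) class, in which chromatin is spread through the nucleus, and the surrounded nucleolus (SN) class, in which condensed chromatin rings the nucleolus. The class of an oocyte is thus a prediction from its image. Each class comprised 15 oocytes and was sequenced as 2 libraries, NSN replicates 1 and 2 and SN replicates 1 and 2. The division of the 15 oocytes between libraries is not stated, and no label says that the replicates were separate animals, so the p-values cover the variation between libraries and no more, and part of it may be technical. The labels give the same protocol for both classes, with cumulus cells stripped by pipetting, and no strain or genotype is given in the labels. The question the comparison addresses is whether transcript levels differ between oocytes of the 2 chromatin states.

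Linker histones bind the DNA that enters and leaves the nucleosome, and the oocyte has a form of its own, H1f8 (also called H1foo), which somatic linker histones replace in the embryo. Replacement variants differ from the bulk core histones in that they are made and deposited outside DNA replication, and their messages carry a poly(A) tail where most bulk histone messages end in a stem-loop. A growing oocyte does not replicate its DNA, and H3.3 is known to be deposited in it throughout growth. RNA was captured here with oligo(dT), so a message with a short or absent tail can be under-represented, and tail length was not measured.

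Each library held 32307398 to 37023401 estimated counts, so that 3 counts amount to 0.081 to 0.0929 CPM (a count divided by its library's size and scaled up). Messages of the oocyte marker list summed to 22190 to 24390 CPM in NSN and to 24540 to 29550 CPM in SN libraries, and all 12 of its markers were detected in every library. The granulosa and cumulus list summed to 82.7 to 94.4 CPM in NSN and 87.4 to 89.5 CPM in SN, with 2 of its 12 markers at 0 in at least 1 library and none at 0 in all. The theca and stroma list summed to 7.89 to 8.77 and 6.85 to 7.11 CPM, with 3 of 7 markers at 0 in at least 1 library. The blood and endothelial list summed to 15.8 to 16.8 and 18.5 to 20.6 CPM, with 5 of 7 at 0 in at least 1 library. Hba-a1, an alpha globin, had 0 counts in both NSN libraries against 18 and 26 in SN, and Lyz2, the lysozyme of macrophages, had 0 and 1 against 27 and 35. Their adjusted p was 0.38 and 0.358 in the edgeR test, 0.00932 and 0.00406 with library size alone, 0.0289 and 0.01 with no filter on low counts, and 1.94e-19 and 1.42e-11 on log2(TPM + 1) by limma. Of the 8 granulosa and cumulus markers tested, 4 had a positive and 4 a negative log2 fold change (median -0.015). Fst and Hsd17b1 had -1.32 and -0.83, and Cyp19a1 had 0.14. Of the 4 theca and stroma markers tested, 1 was positive and 3 were negative, with Pdgfra and Cyp11a1 at -1.11 and -0.30. All 12 oocyte markers were positive (median 0.13), with Oosp1 at 0.44, where 48% of all tested genes were positive. Zp1, Zp2, Zp3, Gdf9, Bmp15, Oosp1 and Mos lie above 10 log2 CPM, and 98.4% of genes at that level were positive. None of these markers passed the edgeR test. The value of Fst was -0.22 without NSN replicate 1 and -1.94 without NSN replicate 2. The part of these other cells in the results below was not tested. SN replicate 1 stood apart in composition, with a TMM scaling factor of 0.896 against 1.01 to 1.08 in the other libraries. TMM, the trimmed mean of M-values, corrects library sizes for composition, and normalised CPM below are scaled to the corrected size.

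All 9 genes passed the filter on low counts, and none passed the comparison of SN with NSN. In the quasi-likelihood test of edgeR, adjusted by Benjamini-Hochberg, 0 of the 9 reached an adjusted p of 0.05, as did 0 of all 13426 genes tested (0%). At an unadjusted p under 0.05 there was 1 of the 9, H3f3a, with SN higher, against 7.48% of all genes (4.01% with SN higher and 3.46% with SN lower). The messages spanned a range of more than 3 orders of magnitude per transcript length, with H1f8 at the top, then the H3.3 pair, H2ax and the H2A.Z pair, and H1f0, Macroh2a1 and H1f10 at the bottom. The 9 genes together made up 1.79% and 1.87% of all transcripts in NSN and 1.81% and 1.71% in SN, in TPM (transcript abundance per length, scaled to a common sum). Lower levels of a message per oocyte and fewer oocytes that hold it cannot be told apart in pooled oocytes.

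**Figure D1:**
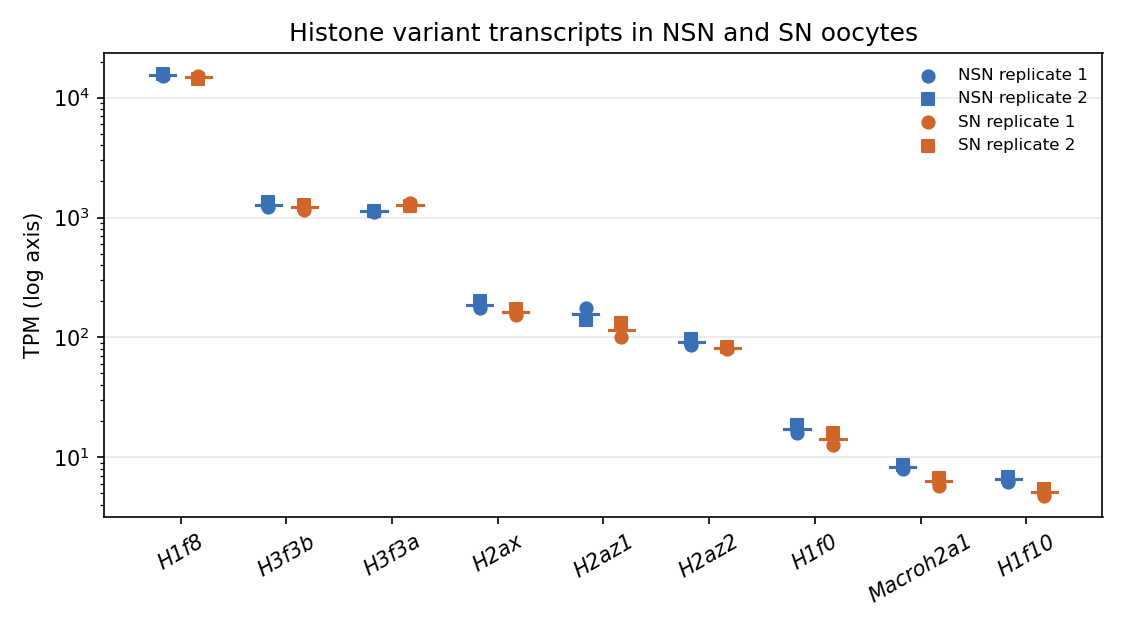
Level of each of the 9 genes in TPM on a log axis, 1 point per library (NSN blue, SN orange; circles replicate 1, squares replicate 2), with a line at each class mean. H1f8 lies between 14193 and 15733 TPM in all 4 libraries, and H1f10 between 4.78 and 6.85 TPM.

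H1f8, on chromosome 6 at 115944931 to 115950242 of GRCm38, encodes the oocyte linker histone. It measured 15114 and 15733 TPM in NSN and 15298 and 14193 TPM in SN. The classes overlapped, and among all genes its rank by TPM was 2 and 2 in NSN and 4 and 3 in SN. It alone took 1.05% and 1.04% of all estimated counts in NSN and 1.07% and 0.965% in SN. In normalised CPM the libraries stood at 10190 and 9666 in NSN and 11890 and 9569 in SN, and SN replicate 1 was the high one. The log2 fold change of SN over NSN was 0.11 (SE 0.21, 95% interval -0.34 to 0.56, adjusted p 0.918), and it was -0.05 when SN replicate 1 was left out.

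H1f8 has 2 curated RefSeq transcripts, and both were present in every library. In the annotation they hold 304 and 246 codons, in transcripts of 1113 and 1122 bases. Their exons differ only by 4 bases at chr6:115949742-115949745 and 5 at the 3′ end, both held by the 246-codon form alone. Only reads over these bases can tell the forms apart. The shorter-coding form made up 34.3% and 34.6% of H1f8 TPM in NSN and 35.4% and 35.3% in SN, a mean of 34.4% ± 0.195 and 35.3% ± 0.0345 (SD, n = 2 each). Both SN libraries lay above both NSN libraries. With 2 libraries against 2, a full separation in either direction has an exact permutation p of 0.333. How many of all transcript shares separate in this way was not counted. The test of transcript shares (edgeR's diffSpliceDGE with a Simes p per gene) gave p 0.908 and adjusted p 1. The log2 fold changes of the forms were 0.07 (SE 0.14) for 304 codons and 0.13 (SE 0.14) for 246 codons. RSEM divides reads that match both forms, or near-identical gene copies, by likelihood, and that error is in no test here.

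The promoter of H1f8, 250 bases before to 50 after the start from RefSeq on GRCm38.p6, is shown because it belongs to the most abundant of the 9 messages; capitals mark CCAAT or its reverse complement ATTGG, the letters bound by the factor NF-Y. It lies at chr6:115944681-115944980 on the plus strand.
H1f8 promoter: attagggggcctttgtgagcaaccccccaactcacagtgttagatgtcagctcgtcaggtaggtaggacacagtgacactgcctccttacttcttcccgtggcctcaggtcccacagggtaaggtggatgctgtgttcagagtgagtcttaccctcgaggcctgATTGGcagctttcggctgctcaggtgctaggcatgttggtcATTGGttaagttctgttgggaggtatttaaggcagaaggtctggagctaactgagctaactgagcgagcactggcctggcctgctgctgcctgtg
ATTGG stood at positions -86 and -45 from the first transcribed base, counted as 0. CAGGTG, a match to the E-box letters CANNTG, stood at -66, and neither TATAAA nor the homeobox letters TAATTG was found on either strand. CCAAT was found in 5 of the 8 promoters of these genes that had an entry, CANNTG in 5, TATAAA in 1 and TAATTG in 0. Of all 32851 promoters of the same length, 37.4%, 72.3%, 13.6% and 8% held these letters. These matches are descriptions of the sequence only.

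The genes with levels most like those of H1f8 over the 4 libraries, by Euclidean distance of log2 CPM, were Hddc3 (0.276), Ubb (0.351), Ldhb (0.514), Zbed3 (0.616) and Elobl (0.637). Ubb encodes ubiquitin and Ldhb the heart-type subunit of lactate dehydrogenase. Their log2 fold changes of SN over NSN were 0.37, 0.20, 0.27, 0.21 and 0.38, with none past the test. The 125 genes above 10 log2 CPM, to which these belong, had a median of 0.26.

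The other linker histones were rare beside it. H1f0, the linker histone of differentiated and non-dividing cells, lies on chromosome 15 at 79028212 to 79030504. It measured 15.81 and 18.70 TPM in NSN and 12.53 and 15.78 TPM in SN. H1f8 stood at 956 and 841 times H1f0 in NSN and at 1220 and 899 times in SN, in TPM. In normalised CPM, H1f0 had 23.97 and 25.86 in NSN and 22.00 and 24.07 in SN; the classes overlapped, and the log2 fold change was -0.11 (SE 0.12, adjusted p 0.845). H1f10, a divergent linker histone found in many tissues, lies on chromosome 6 at 87980421 to 87981482. It had 3.88 and 3.89 normalised CPM in NSN and 3.44 and 3.36 in SN, with both SN libraries below both NSN libraries (log2 fold change -0.19, SE 0.24, adjusted p 0.873).
Of the 8 other linker histone genes in the table, only H1f1 passed the filter on low counts, at 17.23 ± 0.141 TPM in NSN and 17.32 ± 0.834 TPM in SN (SD, n = 2 each), a level close to that of H1f0. The other 7 (H1f2 to H1f7 and Hils1) had between 0 and 11 estimated counts in a library. H1f8 accounted for 99.7%, 99.7%, 99.8% and 99.7% of all linker histone TPM in NSN replicates 1 and 2 and SN replicates 1 and 2. The exact 2-sided permutation test over libraries gave p 0.667 for this share, and 0.667 after adjustment over the 3 shares tested; 2 libraries against 2 cannot give a p under 0.333. Of 6 chaperones that handle linker histones, 5 had a positive log2 fold change and 1 a negative one (median 0.12). Over all tested genes 48% were positive. Ptma, prothymosin alpha, went from 28.6 ± 0.89 to 34.4 ± 2.06 normalised CPM (SD, n = 2 each, edgeR unadjusted p 0.0379, adjusted p 0.662).

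H3f3a and H3f3b encode the same H3.3 protein of 136 codons from different chromosomes, and their messages stood at nearly the same level in the authors' TPM. H3f3a lies on chromosome 1 at 180802560 to 180813605 and H3f3b on chromosome 11 at 116021961 to 116026039. Their promoters are shown so that the regions upstream of genes for a single protein can be compared, with CCAAT or ATTGG in capitals. That of H3f3a is chr1:180813556-180813855 and that of H3f3b is chr11:116024455-116024754, both on the minus strand and written 5′ to 3′.
H3f3a promoter: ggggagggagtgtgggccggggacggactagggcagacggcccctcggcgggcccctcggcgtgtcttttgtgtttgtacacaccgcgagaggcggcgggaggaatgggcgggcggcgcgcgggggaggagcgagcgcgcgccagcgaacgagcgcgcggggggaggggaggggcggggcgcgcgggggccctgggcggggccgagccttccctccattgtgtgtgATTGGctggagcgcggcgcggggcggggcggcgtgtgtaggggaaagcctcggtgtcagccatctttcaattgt
H3f3b promoter: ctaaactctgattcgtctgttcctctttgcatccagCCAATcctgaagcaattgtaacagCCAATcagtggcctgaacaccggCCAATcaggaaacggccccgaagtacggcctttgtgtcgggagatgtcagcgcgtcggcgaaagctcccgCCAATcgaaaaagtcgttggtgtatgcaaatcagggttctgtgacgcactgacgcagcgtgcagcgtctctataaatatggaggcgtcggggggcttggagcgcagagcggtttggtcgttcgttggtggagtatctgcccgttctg
The H3f3a promoter was 74% G and C, with 1 ATTGG at -24. The H3f3b promoter was 55% G and C, with CCAAT at -214, -190, -167 and -97 and TATAAA at -27, the only TATAAA among the 8 promoters.

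H3f3a had the largest log2 fold change of the 9 genes in the positive direction. It had 716 and 658 normalised CPM in NSN and 971 and 792 in SN, and both SN libraries lay above both NSN libraries. The class means were 687 ± 41 and 881 ± 127 (SD, n = 2 each), a log2 fold change of 0.36 (SE 0.14, 95% interval 0.06 to 0.66) or 1.28-fold. The unadjusted p was 0.023 and the adjusted p 0.662, so the difference did not pass the test. DESeq2 placed it just past the threshold, with an adjusted p of 0.0498. That adjustment leaves out genes that DESeq2 filters by mean level, among them H1f0, H1f10, H2az1, H2az2, Macroh2a1 and H2ax. Over all alternatives the log2 fold change lay between 0.18 and 0.50. Without SN replicate 1 the value was 0.21, and without SN replicate 2 it was 0.50. In the authors' deposited table the single H3f3a model has a log2 ratio of 0.35 with an unadjusted p of 0.00879, beside 8.36% of models in that table with a p under 0.05.

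H3f3b varied less. It had 1609 and 1603 normalised CPM in NSN and 1760 and 1695 in SN; the SN libraries lay above the NSN libraries by a small margin (log2 fold change 0.11, SE 0.14, 95% interval -0.20 to 0.41, adjusted p 0.881). Per length, H3f3b had 1224 and 1338 TPM in NSN and 1151 and 1281 TPM in SN, while H3f3a had 1118 and 1128 TPM in NSN and 1315 and 1237 TPM in SN. The TPM of H3f3b thus overlapped between classes, and the sign of its log2 fold change turned under 5 of 18 alternatives, while that of H3f3a kept its sign in all 18. H3f3b supplied 52.3% and 54.3% of H3.3 TPM in NSN and 46.7% and 50.9% in SN. By estimated counts, with no length correction, its shares were 69.2% and 70.9% in NSN and 64.4% and 68.2% in SN. In TPM both SN shares lay below both NSN shares, with means of 53.3% ± 1.4 and 48.8% ± 2.97 (SD, n = 2 each), and the exact permutation p of 0.333 is the smallest this design can give (0.667 adjusted over the 3 shares).
The near equality in TPM rests on the length the authors' TPM gives to H3f3a. The estimated count per TPM puts that length at 0.951 to 0.952 times that of the 304-codon H1f8 transcript, whereas the GENCODE transcript paired with it in the table, of 2841 bases, is 2.55 times as long. For the main H3f3b transcript these ratios were 1.93 to 1.94 and 1.79. That GENCODE transcript spans 180800832 to 180813632, and the RefSeq gene 180802560 to 180813605. H3f3a lies on the minus strand, so most of the extra span is at the 3′ end. The counts were estimated on a model of the shorter length, so the GENCODE length does not belong to them. With GENCODE lengths, a calculation added after seeing the data, the H3f3b shares would be 76.0% and 77.5% in NSN and 71.8% and 75.1% in SN. They are no estimate of the H3.3 messages.
A predicted H3f3b transcript has the same 3 coding exons and differs upstream of them and in its last bases. It made up 3.56% and 3.44% of H3f3b TPM in NSN and 5.04% and 3.90% in SN. Its log2 fold change was 0.44 (SE 0.16, unadjusted p 0.0583, adjusted p 0.812), where that of the main curated transcript was 0.07 (SE 0.07). In the authors' deposited table these are 0.45 with an unadjusted p of 0.00607 and 0.08 with 0.249. The test of H3f3b transcript shares gave p 0.217 and adjusted p 1.

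H3.3 genes supplied 90.7% and 90.8% of all H3-family TPM in NSN and 91.5% and 91.4% in SN. Cenpa, the centromeric H3 variant, supplied 8.14%, 8.37%, 7.55% and 7.49%, and the 12 replication-dependent H3 genes together supplied 0.958%, 0.673%, 0.736% and 0.825%. Nearly all polyadenylated H3 message in these oocytes was thus H3.3 by this measure. Cenpa had 152 ± 1.82 normalised CPM in NSN and 163 ± 13.8 in SN (log2 fold change 0.10, adjusted p 0.817). Of 8 genes that deposit H3.3, 6 had a positive and 2 a negative log2 fold change (median 0.06, against -0.01 over all genes). Atrx, the remodeller that works with Daxx, went from 136 ± 12.4 to 162 ± 2.08 normalised CPM (SD, n = 2 each; log2 fold change 0.26, unadjusted p 0.0232, adjusted p 0.662).

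H2A.Z is a variant placed at promoters and exchanged by the SRCAP and p400 complexes, and H2az1 and H2az2 encode its slightly different forms. H2az1, on chromosome 3 at 137864487 to 137866922, had the most negative log2 fold change of the 9 genes. It had 110 and 79.5 normalised CPM in NSN and 72.1 and 81.6 in SN. NSN replicate 1 was the high library and the other 3 overlapped. The log2 fold change was -0.30 (SE 0.14, 95% interval -0.62 to 0.02, unadjusted p 0.0651, adjusted p 0.679), and it was -0.05 without NSN replicate 1 and -0.51 without NSN replicate 2. H2az2, on chromosome 11 at 6427226 to 6444511, had 89.4 and 90.7 normalised CPM in NSN and 96.5 and 86.3 in SN (log2 fold change 0.02, SE 0.10, 95% interval -0.19 to 0.23, adjusted p 0.97).
Per length, H2az1 had 175 and 139 TPM in NSN and 100 and 131 TPM in SN, above H2az2 at 86.3 and 96.2 TPM in NSN and 80.6 and 83.0 TPM in SN. H2az1 supplied 67.0% and 59.1% of H2A.Z TPM in NSN and 55.4% and 61.1% in SN, and the classes overlapped (exact permutation p 0.667, also after adjustment over the 3 shares).

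Both H2A.Z genes had a minor curated transcript that lacks part of the coding region. For H2az1 the 105-codon form lacks 69 bases of exon 4, chr3:137866011-137866079, of the 128-codon form. It made up 2.53% and 4.44% of H2az1 TPM in NSN and 5.37% and 5.18% in SN, with both SN libraries above both NSN libraries. As for H1f8, how many of all transcript shares separate in this way was not counted. The log2 fold change was 0.34 (SE 0.32) for this form and -0.34 (SE 0.20) for the 128-codon form, and the test of shares gave p 0.905 and adjusted p 1. For H2az2 the 90-codon form lacks an exon of 114 bases, chr11:6433724-6433837, and made up 7.88% and 8.77% of H2az2 TPM in NSN and 7.60% and 9.32% in SN, which overlap (shares p 0.98, adjusted p 1). The structure of the 90-codon form is that of its paired GENCODE transcript of 519 bases, 0.466 times the length of the 304-codon H1f8 transcript. The estimated count per TPM gives 1.42 times, so the model counted was longer than this structure. Of 13 genes of the complexes that exchange H2A.Z, 8 had a positive and 5 a negative log2 fold change (median 0.03). Vps72, the subunit that binds H2A.Z, went from 82.1 ± 4.34 to 94.9 ± 2.83 normalised CPM (SD, n = 2 each; unadjusted p 0.0467, adjusted p 0.662).

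H2ax encodes H2A.X, whose phosphorylated form marks DNA breaks and the silenced sex chromosomes of male meiosis. It lies on chromosome 9 at 44334715 to 44336077 and has a single transcript of 143 codons. It had 147 and 154 normalised CPM in NSN and 148 and 147 in SN, and the classes overlapped. The log2 fold change was -0.03 (SE 0.09, 95% interval -0.23 to 0.17, adjusted p 0.958). Per length it had 175 and 201 TPM in NSN and 152 and 174 TPM in SN, a range that overlaps that of H2az1.
H2ax is known to make both a tailed message and a short one that ends after a histone stem-loop, the structure by which replication-dependent histone messages are processed. A search on the sense strand for the histone stem-loop consensus, 16 bases with 6 stem pairs, found it in H2ax alone of the 9 genes, at transcript positions 547 to 562 of 1384, with 822 annotated bases after it. It is shown with 5 bases on each side, the stem-loop in capitals, beside those of H2ac18 and H2bc12, the replication-dependent genes over 5 CPM that have one.
H2ax: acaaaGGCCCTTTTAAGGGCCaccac
H2ac18: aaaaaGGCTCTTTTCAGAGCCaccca
H2bc12: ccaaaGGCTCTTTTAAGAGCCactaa
In H2ac18 and H2bc12 the annotated transcript ends 35 and 30 bases after the element. The consensus was found in 33 of 47 replication-dependent core histone genes (70.2%), in 4 of 8 other linker histone genes and in 0 of 8 other variant histone genes. It was found in 54 of 58797 protein-coding transcripts (0.0918%). Some transcripts without a match are short as annotated, such as those of H2bc13 (381 bases) and H2ac1 (390 bases). A transcript annotated without bases after its coding region cannot show the element, so a gene without a match may still carry it. Only the tailed message is captured by oligo(dT), and the stem-loop form of H2ax was not analysed here.
Of 10 kinases and readers of H2A.X, 4 had a positive and 6 a negative log2 fold change (median -0.05). Baz1b, a kinase that phosphorylates a tyrosine of H2A.X, went from 49.2 ± 1.81 to 40.1 ± 0.591 normalised CPM (SD, n = 2 each; log2 fold change -0.30, unadjusted p 0.0137, adjusted p 0.662).

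Macroh2a1, on chromosome 13 at 56073622 to 56135626, encodes an H2A variant with a large macro domain that is enriched on the inactive X chromosome. It had 10.7 and 10.8 normalised CPM in NSN and 9.28 and 9.40 in SN, so that both SN libraries lay below both NSN libraries and each class varied little. The log2 fold change was -0.21 (SE 0.16, 95% interval -0.55 to 0.14, adjusted p 0.766), with the same sign in all 18 alternatives (-0.41 to -0.16). Its most abundant curated transcript made up 63.9% and 55.0% of its TPM in NSN and 67.5% and 65.9% in SN. No annotated structure was paired with it, so which of the alternative exons below it holds was not determined. The curated form of 372 codons, which holds an exon of 100 bases at chr13:56089758-56089857, made up 33.6% and 34.9% in NSN and 28.7% and 30.2% in SN. The form of 369 codons holds in its place an exon of 91 bases at chr13:56088252-56088342. It made up 6.79% in NSN replicate 2, from 23.7 estimated counts, and was listed at 0 in the other 3 libraries. The test of shares gave p 0.992 and adjusted p 1.

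**Figure D2:**
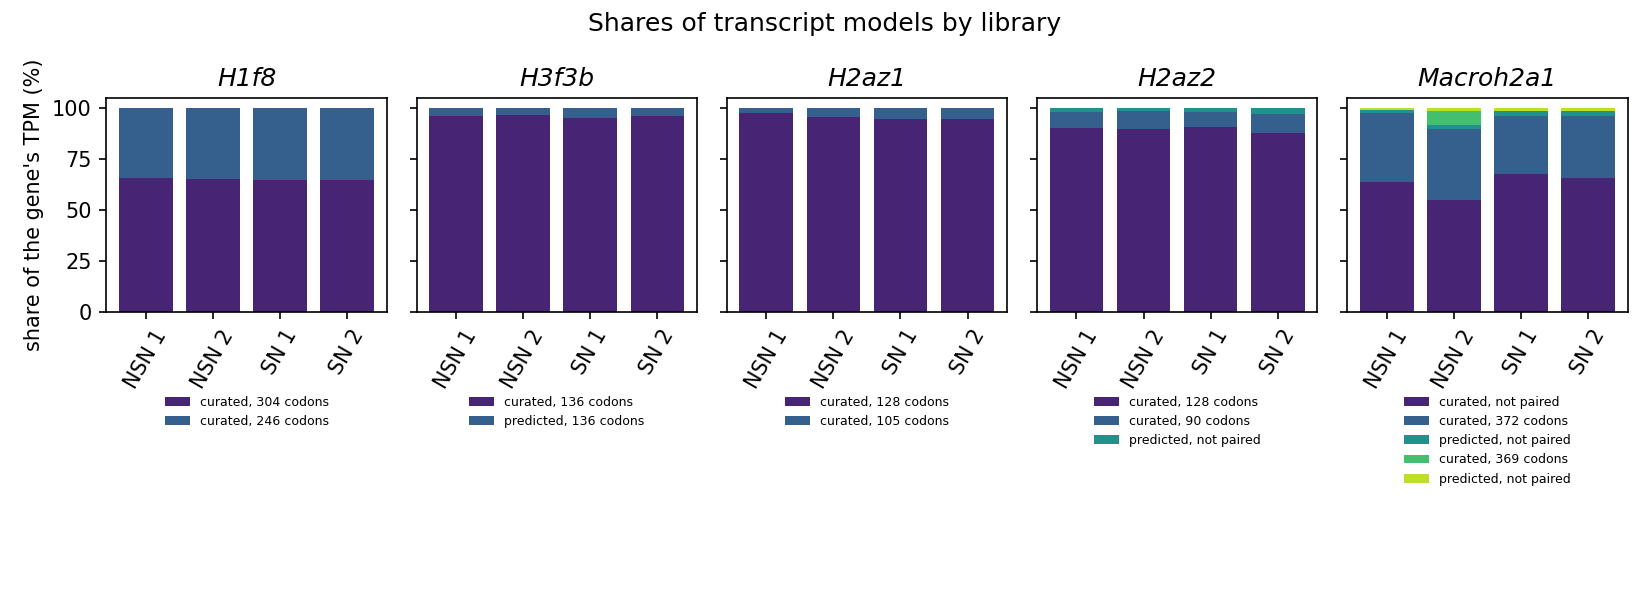
Share of each gene's TPM held by each of its transcript models, 1 stacked bar per library, for the 5 genes with more than 1 model. The shorter-coding H1f8 form takes 34.3% to 35.4% in all 4 libraries, and the 369-codon Macroh2a1 form appears only in NSN replicate 2.

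Across all transcripts, 0 of 29835 passed edgeR's test (0%), and 6.47% had an unadjusted p under 0.05. Shares of transcripts passed in 30 of 7000 genes (0.429%) at an adjusted p of 0.05, with 7.06% at an unadjusted p under 0.05. None of the 5 genes with several models was among those called. Both tests had little power for small changes in simulated data. When a gene's transcripts were moved 2-fold in opposite directions, the test of shares found 0% of such genes. With a 4-fold move it found 38.3%. Among genes not moved it made 7 false calls in the 2-fold and 23 in the 4-fold simulation, beside 60 genes moved in each. The 30 calls above can thus include false ones. The transcript test found 3.08% of the transcripts altered 2-fold, and 51.4% where the alteration was 4-fold. The absence of calls for these genes is thus no evidence that their transcript use was the same in both classes.

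Within the H2A family, H2A.Z supplied 37.2% and 35.5% of TPM in NSN and 34.6% and 34.9% in SN. H2ax supplied 24.9% and 30.2% in NSN and 29.2% and 28.4% in SN, and macroH2A 1.40% to 1.65% over the 4 libraries. The 12 replication-dependent H2A genes supplied 20.6% and 16.2% in NSN and 17.7% and 16.7% in SN, a larger part than the replication-dependent genes had among H3. Most of it was H2ac18, at 105.8 and 90.7 TPM in NSN and 81.5 and 89.9 TPM in SN. The 12 genes summed to 144.6 and 107.5 TPM in NSN and 92.5 and 102.1 TPM in SN. H2ac23 and H2ac24 were highest in NSN replicate 1, at 15.4 and 12.7 TPM. The 3 other H2A genes (H2aj, H2ac1 and H2aw) supplied 15.9% and 16.4% in NSN and 17% and 18.6% in SN. Both NSN shares lay above both SN shares for H2A.Z, and below them for the other H2A genes; the family shares were not tested.

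**Figure D3:**
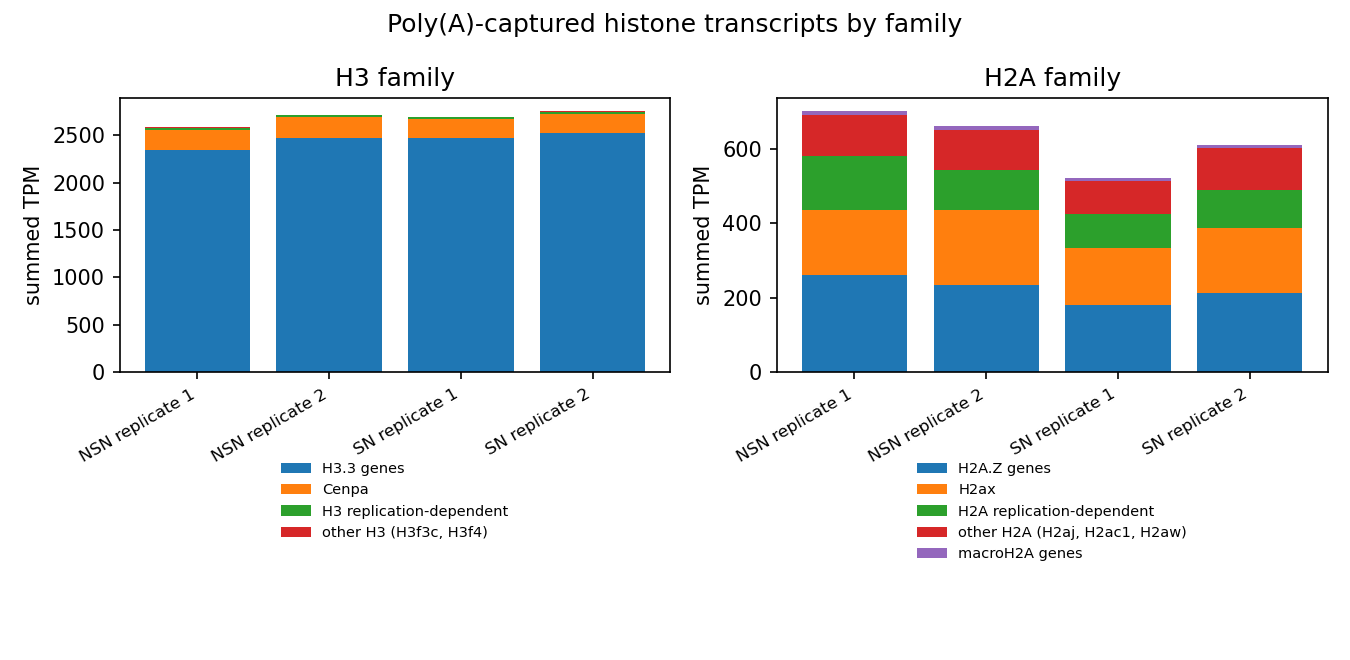
Summed TPM of the H3 family (left) and the H2A family (right) as 1 stacked bar per library from 0, coloured by group of genes, on separate scales. H3.3 genes fill 2342 to 2518 TPM of the H3 bars, while H2A.Z (181 to 261 TPM), H2ax (152 to 201 TPM) and replication-dependent genes (92.5 to 145 TPM) divide the H2A bars.

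Of 47 replication-dependent core histone genes, 22 passed the filter, with 11 positive and 11 negative log2 fold changes (median 0.03). The 3 with a mean of at least 5 CPM were H2bc4 (226 ± 35.5 normalised CPM in NSN and 199 ± 9.73 in SN), H2ac18 (24.1 ± 4.27 and 23.2 ± 0.825) and H2bc12 (8.56 ± 0.752 and 8.29 ± 0.213), all with overlapping classes (SD, n = 2 each). H2bc4, the most abundant, has no stem-loop in its annotated transcript. At an unadjusted p under 0.05 there were 4 of the 22, against 7.48% of all genes: H2bc23 (log2 fold change 1.38) and H4c9 (1.51) in the positive direction, and H2ac23 (-1.54) and H2ac24 (-1.51) in the negative one. All 4 stood at mean levels under 3 normalised CPM with an adjusted p of 0.662 in the edgeR test. On log2(TPM + 1), limma gave adjusted p-values of 0.00027 for H2bc23 and 0.0088 for both H2ac23 and H4c9, and 0.707 for each of them with no filter on low values. Without NSN replicate 1, H2ac23 and H2ac24 had log2 fold changes of -0.43 and -0.14; without NSN replicate 2 they had -2.16 and -2.20. In the same pair of fits H2bc23 had 0.94 and 2.03.
Among other variants, H2aj had 34.9 ± 6.14 normalised CPM in NSN and 36.0 ± 1.45 in SN (SD, n = 2 each). H2ac1, an H2A variant, had 8.80 ± 0.159 and 8.20 ± 0.0449. H2bc1, an H2B variant, had 0.637 ± 0.335 and 1.09 ± 0.249 (edgeR unadjusted p 0.181). Of 9 factors in the table that process histone pre-mRNA, 5 had a positive and 4 a negative log2 fold change (median 0.02). Slbp, the protein that binds the stem-loop, had 1506 ± 42.6 normalised CPM in NSN and 1808 ± 4.12 in SN (SD, n = 2 each; log2 fold change 0.26, SE 0.14, unadjusted p 0.0855, adjusted p 0.707). The 125 genes above 10 log2 CPM, among them Slbp (10.69), had a median log2 fold change of 0.26. Cstf2, a cleavage stimulation subunit, had 14.7 ± 2.23 and 12.5 ± 1.11 (log2 fold change -0.24, unadjusted p 0.16).

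The order of the 9 levels was the same by mean TPM in NSN as over all libraries, while H3f3a stood above H3f3b by mean TPM in SN. Some neighbours were not separated. In the authors' TPM the ranges of H3f3b (1151 to 1338 TPM) and H3f3a (1118 to 1315 TPM) overlapped, as did those of H2ax (152 to 201) and H2az1 (100 to 175), and those of Macroh2a1 (5.79 to 8.69) and H1f10 (4.78 to 6.85). H2az2 (80.6 to 96.2) lay below H2az1 in every library, and H1f0 (12.5 to 18.7) lay below H2az2 and above Macroh2a1.

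In normalised CPM the classes did not overlap for 4 of the 9 genes, H3f3a and H3f3b with SN higher and H1f10 and Macroh2a1 with SN lower; of all genes 18.3% and 20.7% did so, 39% together. In TPM the count was 1 with SN higher (H3f3a) and 6 with SN lower (H1f0, H1f10, H2az1, H2az2, Macroh2a1 and H2ax), against 4.99% and 37% of all genes. The scales differ because TPM is not corrected for composition: the median log2 fold change of all genes was -0.01 in the edgeR test, -0.15 when scaled by library size alone and -0.13 on log2(TPM + 1). The 9 genes had a median of -0.03 and a range of -0.30 to 0.36.

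**Figure D4:**
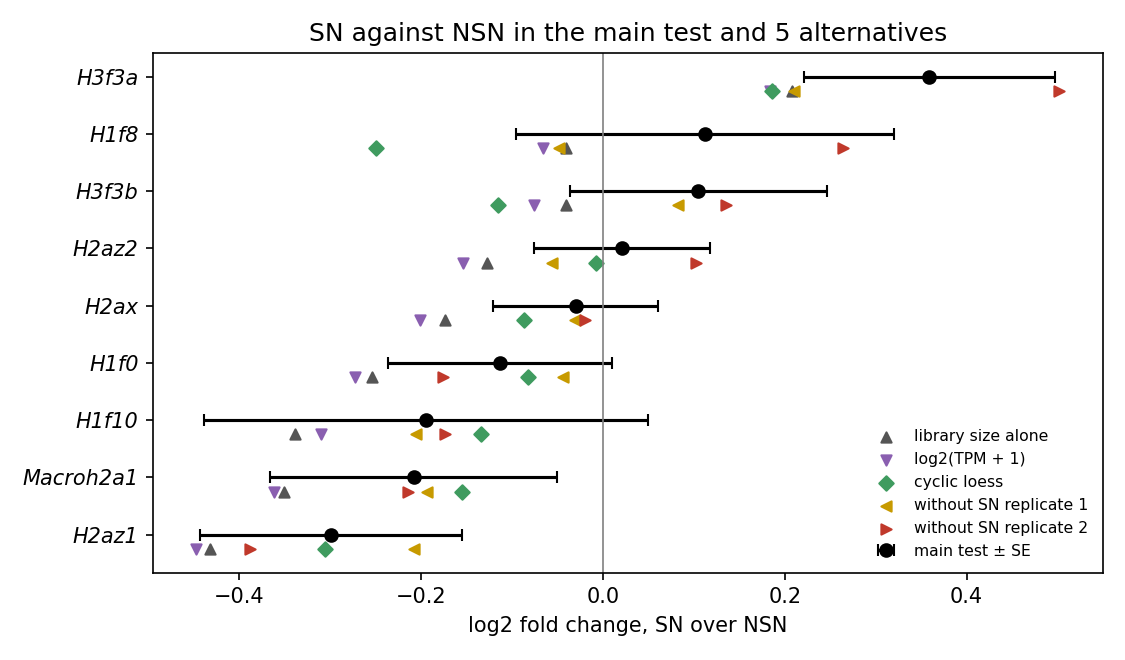
Log2 fold change of SN over NSN for each of the 9 genes in the edgeR test (black points, bars ± 1 SE) and, beneath each, under 5 alternatives (library size alone, log2(TPM + 1), cyclic loess, and each SN replicate left out), with a line at 0. All values of H3f3a lie right of 0 (0.18 to 0.50) and all of H2az1 left of it, while those of H1f8 lie on both sides (-0.25 to 0.26).

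Fold changes in these libraries moved with abundance. The median log2 fold change was -0.06 in the 3055 genes between 2 and 4 log2 CPM, 0.03 in the 2151 genes between 6 and 8, 0.13 in the 504 genes between 8 and 10, and 0.26 in the 125 genes above 10, of which 98.4% had a positive value. H1f8 (13.33 log2 CPM) and H3f3b (10.7), at 0.11 each, thus lay below the median of genes as abundant as they are: 86.4% and 89.6% of the 125 genes had values at or above theirs. H3f3a (9.62) lay high in its range, with 26 of 504 genes (5.16%) at or above it. H2az1 (6.42) lay at the low end of its range, with 7 of 2151 genes (0.325%) at or below its -0.30; without NSN replicate 1 its value was -0.05, so this rank rests on that library. After cyclic loess scaling, which removes a trend with abundance, the log2 fold changes were -0.25 for H1f8, -0.12 for H3f3b and 0.19 for H3f3a.

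**Figure D5:**
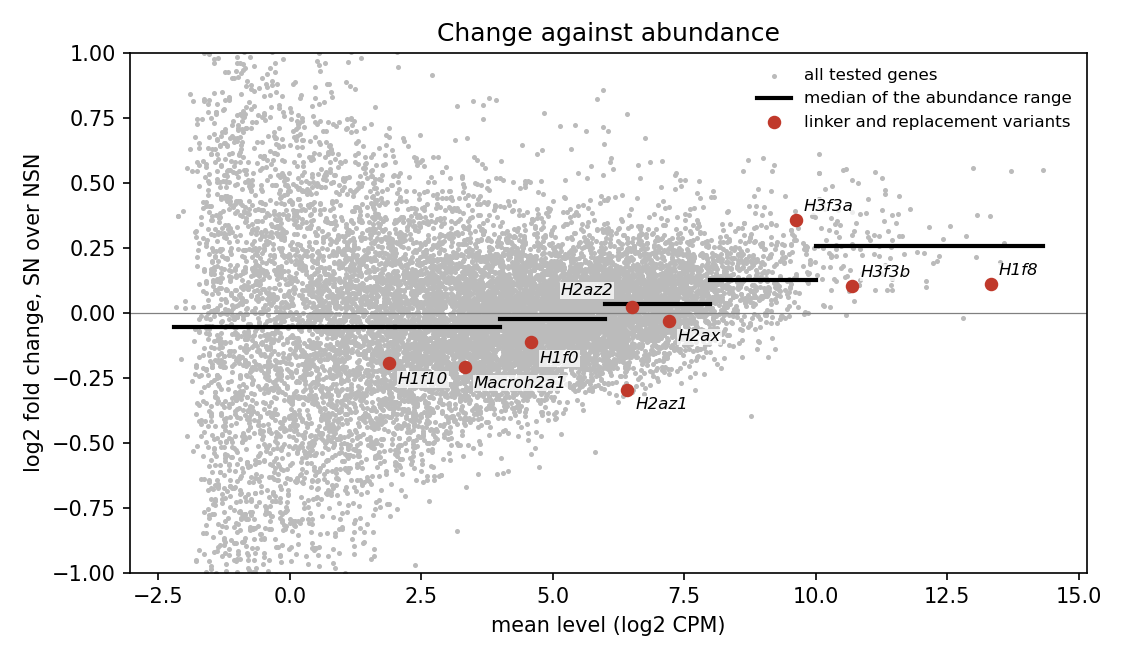
Log2 fold change of SN over NSN against mean log2 CPM for all tested genes (grey), with the 9 genes in red and black bars at the median of each abundance range. The bars climb from -0.06 to 0.26; 320 genes lie outside the vertical axis, none of them among the 9.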

How the data were processed

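Gene by gene values came from 1 deposited table of 48574 RefSeq transcript models (24159 curated, 24415 predicted), of which 18 belong to the 9 genes; 16 value columns were not used. The submitters' processing notes name HISAT2, Bowtie2, RSEM and mm10, without versions or roles. The authors deposited estimated counts (80.1% of the nonzero ones not exactly whole as deposited), TPM, and for SN against NSN a log2 ratio with an unadjusted p-value whose tool is not given in the sources used here. Estimated counts were summed per gene ID and rounded, filtered by filterByExpr and scaled by TMM in edgeR 4.0.16 (R 4.3.3), giving 13426 genes. The quasi-likelihood test (robust) gave log2 fold changes, with SEs from the F statistic. TPM was used between genes. DESeq2 1.42.0, limma 3.58.1 (voom), other scalings and filters were alternatives. Scripts were tested on simulated data. Promoters are from RefSeq (GRCm38.p6), exon structures from GENCODE M21 on GRCm38, the assembly mm10 names. Named list genes are those with an unadjusted p under 0.05, or the 2 with the smallest p, with other histones of at least 5 CPM. One sequence comparison is not reported here. The 9 genes and the lists were chosen with earlier results of these data known. Floors of 3 counts cover counting error only, since PCR copies are not independent molecules.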

Additional observations from a re-analysis of the deposited data

How the results depend on the processing

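With 2 libraries a class, counts of called genes depended on the method. Against 0 genes in the main test, which calls genes at an adjusted p of 0.05 and had 1004 at an unadjusted p under 0.05, 47 were called by DESeq2 (also with its filtering at 0.1, chosen after seeing the data), 15 with library size alone, 15 with no filter on low counts, 1 with at least 5 CPM in 2 libraries, 47 on log2(TPM + 1), 45 on log2(TPM + 0.1), 1 with curated models only, and 2 to 290 with 1 library left out (26 when it was SN replicate 1, 290 when it was SN replicate 2, and 2 when it was either NSN library). limma-voom, RLE and upper quartile factors, log2(TPM + 1) with no filter and cyclic loess called 0. H3f3a was the only one of the 9 genes called by any of them, by DESeq2. The filter of DESeq2 on mean level left H1f0, H1f10, H2az1, H2az2, Macroh2a1 and H2ax without an adjusted p. DESeq2 at 0.05 thus could not call these. DESeq2 called 1471 transcripts where edgeR called 0. The p-values in the authors' deposited table, adjusted by Benjamini-Hochberg, were under 0.05 for 1003 of 47854 models. Genes with changed transcript shares numbered 30, and 0 to 14 with 1 library left out; none of these 30 is among the 9 genes. Replicates with the same number had deviations from their class means that correlated at 0.065. With 2 libraries a class both pairs must give the same value, so this is a single check. No label names a shared batch, and whether the numbers pair the samples cannot be settled from this. With the number as a replicate block in edgeR, 44 genes were called, 1486 had an unadjusted p under 0.05, and 2 passed the test of shares. H3f3a had an adjusted p of 0.11 in that fit.

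Signs turned as follows, in log2 SN over NSN. With library size alone H1f8 was -0.04, H3f3b -0.04, H2az2 -0.127, Cenpa -0.045 and H2aj -0.092, the H1f8 transcripts of 246 and 304 codons -0.003 and -0.06, the main H3f3b transcript -0.059 and the 90-codon H2az2 transcript -0.103. On log2(TPM + 1), with or without the filter, H1f8 was -0.066, H3f3b -0.076, H2az2 -0.154, Cenpa -0.093 and H2aj -0.116, and on log2(TPM + 0.1) they were -0.066, -0.076, -0.155, -0.094 and -0.12. These scalings moved the median of all genes to -0.154, -0.133 (-0.084 with no filter) and -0.179. With cyclic loess, chosen after seeing the data, H1f8 was -0.249, H3f3b -0.115, H2az2 -0.007, H2bc12 0.01, Ubb -0.175, Ldhb -0.106 and Zbed3 -0.128. Leaving out NSN replicate 1 gave Hsd17b1 (a granulosa marker) 0.159, H2ac18 0.135, H2bc12 0.045, the 90-codon H2az2 transcript -0.072 and the main Macroh2a1 transcript 0.023. Leaving out NSN replicate 2 gave H2ax 0.003, H2aj -0.124 and the 128-codon H2az2 transcript 0.013. Leaving out SN replicate 1 gave H1f8 -0.048, H2az2 -0.056, Ubb -0.01 and the H1f8 transcripts -0.021 and -0.077, and leaving out SN replicate 2 gave the 128- and 90-codon H2az2 transcripts 0.095 and -0.044. Over the 4 such fits the ranges were -0.048 to 0.264 for H1f8, -0.056 to 0.103 for H2az2, -0.062 to 0.003 for H2ax, -0.124 to 0.236 for H2aj, -1.42 to 0.159 for Hsd17b1, -0.227 to 0.135 for H2ac18, -0.01 to 0.383 for Ubb, -0.021 to 0.282 and -0.077 to 0.223 for the H1f8 transcripts of 246 and 304 codons, -0.098 to 0.095 and -0.072 to 0.125 for the H2az2 transcripts of 128 and 90 codons, and -0.185 to 0.023 for the main Macroh2a1 transcript. Each lone library is then assumed to vary like the other class. The cause was not tested. H1f0, H1f10, H3f3a, H2az1 and Macroh2a1 kept their sign in every alternative run.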
